A study of Mus musculus with 8 samples.

Results

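The genes described here encode the enzymes of cholesterol and fatty acid synthesis and some of their regulators. The set holds 28 mouse genes chosen for these functions, which were found on the array through the RefSeq accession of each probe. In all, 41 of the 55681 non-control probes belonged to them. After a filter on dim probes, 27 of the 28 genes were among the 14109 named genes tested. The exception was Scd1, a stearoyl-CoA desaturase, whose probe was not well above background on both arrays of any group. By role, the tested genes were 6 enzymes of the mevalonate and isoprenoid steps, 11 enzymes of the squalene and sterol steps, 4 regulators or sterol carriers and 6 fatty acid synthesis genes.

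RNA of granulocyte progenitors, bone marrow cells on the way to granulocytes, was measured on 8 one-colour arrays. The cells had been sorted into a fraction with and a fraction without Flt3, a cytokine receptor of early progenitors. There were 4 groups of 2 arrays each: Flt3+ and Flt3- progenitors of mice labelled Irf8KO, described in the labels as deficient in Irf8, and Flt3+ and Flt3- progenitors of wild-type (WT) mice. The cells were untreated, the 2 arrays of a group came from 2 experiments described as independent, and the comparisons ask how the populations differ and what the loss of Irf8 changes in each. The kind of Irf8 allele, the cells it was deleted in, the strain, the age, the gate beyond Flt3 and the number of animals are not stated in the labels, so that p-values measure the spread between these samples only.

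Levels are given on a log2 scale on which 0 is the 75th percentile of the processed signal of that array. Irf8 encodes a transcription factor of monocyte and dendritic cell development. The level of its probe was 6.67 and 6.67 on Irf8KO Flt3+ arrays, against 5.80 and 5.87 on WT Flt3+ arrays. It was 5.64 and 5.53 on Irf8KO Flt3- arrays, against 4.85 and 4.88 on WT Flt3- arrays. The probe of the targeted gene was thus higher on the arrays labelled Irf8KO, which goes against the label if the probe lies in deleted sequence. The labels do not say where the deletion lies, so every direction below refers to arrays as labelled. The 2 arrays of a group correlated at 0.996 to 0.998 over the genes tested. All arrays lay on 1 slide, with Irf8KO and WT arrays in different rows and Flt3+ and Flt3- arrays in different columns, so that position and group cannot be told apart. All 8 granulocyte progenitor markers examined were well above background on at least 1 array of every group.

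Cells build cholesterol from acetyl-CoA through mevalonate, isoprenoid diphosphates, squalene and a series of sterols, while fatty acids are built from the same precursor through malonyl-CoA. The transcription factors SREBP-2 and SREBP-1, products of Srebf2 and Srebf1, drive the genes of both pathways when membrane sterol is low, and Insig proteins hold them back in the endoplasmic reticulum when sterol is plentiful. Dividing progenitors need both products for new membrane.

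The promoters of 1 gene that was higher and of 5 genes that were lower on Irf8KO Flt3- arrays are shown because SREBPs are known to act near the start sites of such genes together with the factor NF-Y, which binds CCAAT. Each sequence is the 150 bases before 1 RefSeq start site, 5′ to 3′ on the strand of the gene, from assembly GRCm38.p6. For Lss, Hsd17b7 and Fasn the gene as listed begins further upstream. The whole Fasn sequence and part of those of Lss and Hsd17b7 thus lie within the gene. The positions were chr13:119690201-119690350 on the plus strand for Hmgcs1, chr13:8885456-8885605 on the plus strand for Idi1 and chr5:4104698-4104847 on the minus strand for Cyp51. They were chr10:76531455-76531604 on the plus strand for Lss, chr1:169969206-169969355 on the minus strand for Hsd17b7 and chr11:120824548-120824697 on the minus strand for Fasn. Capitals mark CCAAT or its complement ATTGG, the E-box CACGTG, and the sterol regulatory element TCACNCCAC, each searched on both strands.
Hmgcs1: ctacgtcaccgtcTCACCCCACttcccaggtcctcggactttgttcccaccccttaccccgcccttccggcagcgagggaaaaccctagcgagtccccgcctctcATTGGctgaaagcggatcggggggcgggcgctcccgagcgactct
Idi1: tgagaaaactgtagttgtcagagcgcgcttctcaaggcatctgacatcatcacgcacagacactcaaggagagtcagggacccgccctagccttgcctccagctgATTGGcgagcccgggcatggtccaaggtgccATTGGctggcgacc
Cyp51: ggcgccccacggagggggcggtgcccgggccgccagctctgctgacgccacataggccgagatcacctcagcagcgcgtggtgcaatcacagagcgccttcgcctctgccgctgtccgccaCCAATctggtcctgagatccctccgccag
Lss: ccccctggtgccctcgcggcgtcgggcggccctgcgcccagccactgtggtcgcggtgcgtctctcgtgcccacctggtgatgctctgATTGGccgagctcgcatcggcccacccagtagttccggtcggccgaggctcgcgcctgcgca
Hsd17b7: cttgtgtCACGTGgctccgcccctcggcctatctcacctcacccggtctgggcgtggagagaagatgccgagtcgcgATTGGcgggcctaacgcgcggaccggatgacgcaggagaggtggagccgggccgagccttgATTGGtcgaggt
Fasn: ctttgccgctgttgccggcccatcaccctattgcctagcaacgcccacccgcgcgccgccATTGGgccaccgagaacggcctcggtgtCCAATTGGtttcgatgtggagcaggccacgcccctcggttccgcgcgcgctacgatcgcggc

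These letters were searched in the promoters of the 22 members that the RefSeq table held, in windows of 250 bases before to 50 bases after each start. CCAAT, in either orientation, occurred in 20 of the 22 genes (90.9%), against 41.1% of all genes in the table. Of the promoters shown, Idi1, Hsd17b7 and Fasn held several such boxes within 150 bases of the start, and in Fasn 2 of them overlap. The sterol regulatory element as spelled occurred in 1 of 28 member windows, that of Hmgcs1, with its first base at position -137 from the start, against 1.24% of 32851 windows in the table. CACGTG occurred in 4 of the 22 genes (Dhcr7, Hsd17b7, Insig1 and Sc5d), or 18.2%, against 8.09% of all genes in the table. These matches describe the letters in the windows and are not measurements of binding.

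**Figure D1:**
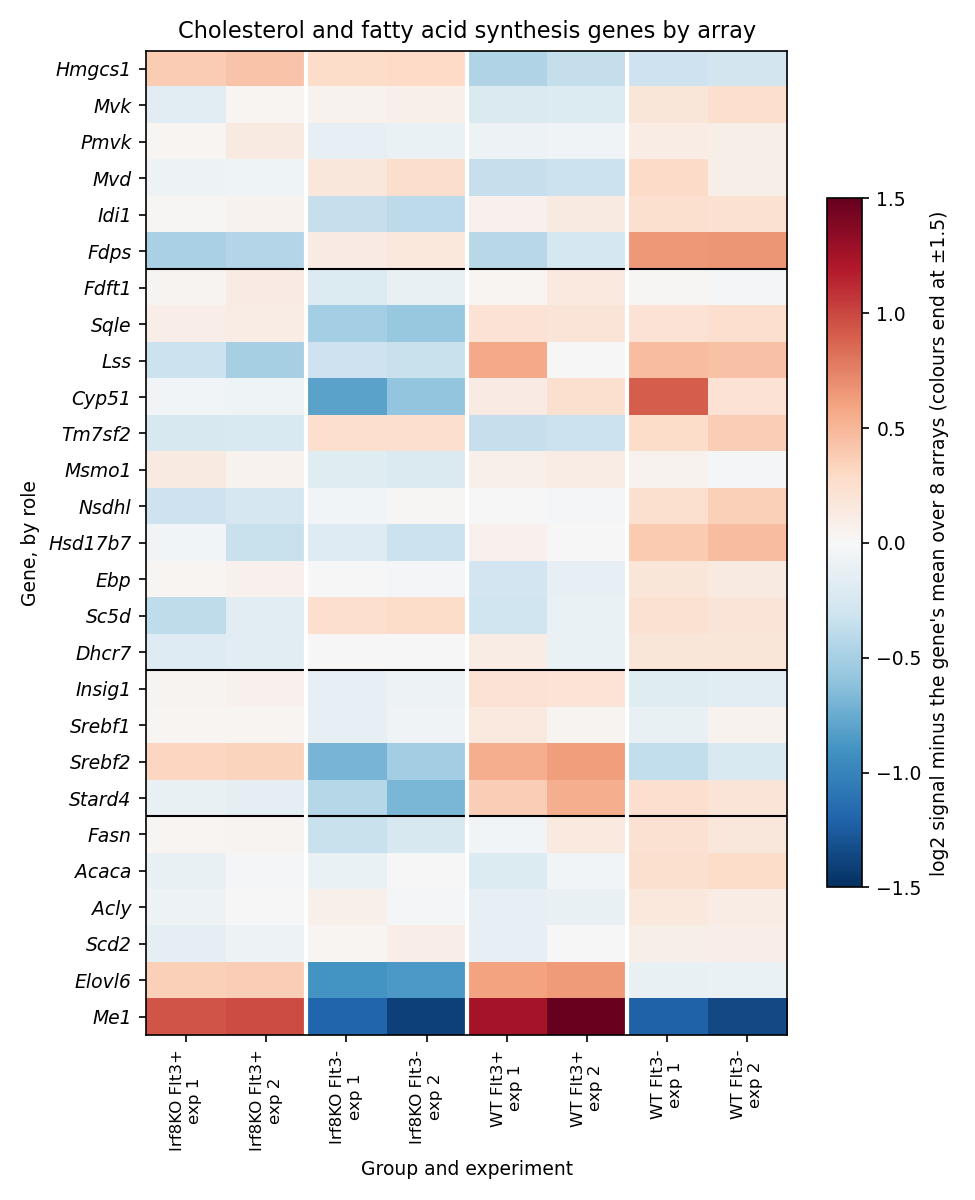
Level of each of the 27 tested members (one per line, grouped by role) on each of the 8 arrays, coloured by its log2 distance from the mean of that gene over all arrays, with the colour scale ending at 1.5 in either direction. Columns run through Irf8KO Flt3+, Irf8KO Flt3-, WT Flt3+ and WT Flt3- arrays. The WT Flt3- columns hold the highest group mean of 16 members and the Irf8KO Flt3- columns the lowest group mean of 13.

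Over the 27 tested members, the WT Flt3- group had the highest mean of 16 members and the Irf8KO Flt3- group the lowest mean of 13, which include Me1, too dim in both Flt3- groups to be ordered. The Irf8KO Flt3+ group was highest for 1 member (Hmgcs1) and lowest for 6, the Irf8KO Flt3- group was highest for 2, and the WT Flt3+ group was highest for 8 and lowest for 7. WT Flt3- arrays were lowest for 1 member, Insig1. The heat map of levels shows the same order in its columns. Neighbouring groups were often separated by less than the test resolved, and the calls are given comparison by comparison.

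In Flt3- progenitors, cholesterol and fatty acid synthesis genes were mostly lower on Irf8KO than on WT arrays, with Hmgcs1 as the one exception among the genes that passed the test. Of the 27 members, 1 rose and 14 fell at an adjusted p below 0.05 in limma, with adjustment over all 14109 genes. At that threshold 43.6% of all genes were called, 16.5% as higher and 27.2% as lower, against 55.6% of the members, 3.7% as higher and 51.9% as lower. The median log2 difference was -0.21 over the members and -0.03 over all genes tested, and the sign was negative for 23 of 27 members. With a further minimum of 1.5-fold, 7 members fell and 0 rose, where 9.98% of all genes were called, 4.66% as higher and 5.32% as lower. Fewer expressing cells and less RNA per cell cannot be told apart in bulk samples.

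Among the mevalonate and isoprenoid enzymes, 1 rose and 3 fell of 6, where 16.5% of all genes rose and 27.2% fell. Hmgcs1 encodes the cytosolic HMG-CoA synthase, which makes the precursor of mevalonate. Its level was 3.63 and 3.65 on Irf8KO Flt3- arrays, against 3.03 and 3.07 on WT Flt3- arrays, a log2 difference of 0.58 ± 0.05 (SE, adjusted p = 0.000677). The Irf8KO arrays were both above the WT arrays. Idi1, the isomerase that makes dimethylallyl diphosphate, went the other way, with levels of 1.86 and 1.81 on Irf8KO Flt3- arrays, against 2.45 and 2.43 on WT Flt3- arrays. Its log2 difference was -0.61 ± 0.04 (SE, adjusted p = 0.000441), with no overlap between the groups. Fdps, the farnesyl diphosphate synthase, had levels of 4.27 and 4.31 on Irf8KO Flt3- arrays, against 4.80 and 4.81 on WT Flt3- arrays, a difference of -0.51 (adjusted p = 0.00159). Both Irf8KO values were lower. Pmvk, the phosphomevalonate kinase, fell by 0.21 (adjusted p = 0.0149). The log2 differences of the kinase gene Mvk (-0.16) and the decarboxylase gene Mvd (0.03) did not pass the test.

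The squalene and sterol enzymes gave 6 falls and 0 rises among 11, against 27.2% of all genes lower and 16.5% higher. Sqle encodes squalene epoxidase, the first oxygen-dependent step of the pathway. Its level was 1.61 and 1.55 on Irf8KO Flt3- arrays, against 2.34 and 2.37 on WT Flt3- arrays, a log2 difference of -0.77 ± 0.04 (SE, adjusted p = 0.000212). The groups were far apart relative to the spread within each. Cyp51, the lanosterol demethylase, had levels of -1.57 and -1.37 on Irf8KO Flt3- arrays, against 0.13 and -0.56 on WT Flt3- arrays, a log2 difference of -1.25 ± 0.22 (SE, adjusted p = 0.00631). The WT arrays were both higher but differed from each other, and the log2 difference was -0.91 without WT Flt3- replicate 1 and -1.60 without replicate 2. Lss, the lanosterol synthase, had levels of -1.56 and -1.59 on Irf8KO Flt3- arrays, against -0.79 and -0.81 on WT Flt3- arrays. Its log2 difference was -0.77 ± 0.18 (SE, adjusted p = 0.0177), with an error that is shared by all 4 groups, in which the 2 WT Flt3+ arrays disagreed. Hsd17b7, a keto-reductase of the sterol demethylation steps, had levels of -1.85 and -1.98 on Irf8KO Flt3- arrays, against -1.27 and -1.19 on WT Flt3- arrays. Its log2 difference was -0.68 (adjusted p = 0.00413), with both Irf8KO arrays lower. Nsdhl, a dehydrogenase of the same steps, fell by 0.32 (adjusted p = 0.00704), and Msmo1, the methylsterol oxidase, fell by 0.22 (adjusted p = 0.0163). Fdft1, Tm7sf2, Ebp, Sc5d and Dhcr7 were not called, with log2 differences between -0.19 and 0.05.

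Of the regulators and carriers, 2 of 4 fell and 0 rose, against 27.2% and 16.5% of all genes. Stard4, which carries sterol between membranes, had levels of 0.78 and 0.52 on Irf8KO Flt3- arrays, against 1.46 and 1.40 on WT Flt3- arrays. Its log2 difference was -0.78 (adjusted p = 0.00229), and both Irf8KO arrays were lower. Srebf2, which encodes SREBP-2, had levels of 0.11 and 0.28 on Irf8KO Flt3- arrays, against 0.43 and 0.57 on WT Flt3- arrays, a log2 difference of -0.31 (adjusted p = 0.0238). The call for Srebf2 rests on 1 of its 2 kept probes, since the other gave 0.47, and the mean of both gave 0.08. The log2 differences of Insig1 (0.07) and Srebf1 (-0.06) did not pass the test.

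In the fatty acid group, 3 of 6 fell and 0 rose, against 27.2% and 16.5% of all genes. Elovl6, the elongase that lengthens palmitate, had levels of 1.43 and 1.48 on Irf8KO Flt3- arrays, against 2.22 and 2.23 on WT Flt3- arrays, a log2 difference of -0.77 ± 0.04 (SE, adjusted p = 0.000176). There was no overlap. Fasn, the fatty acid synthase, had levels of -0.93 and -0.84 on Irf8KO Flt3- arrays, against -0.36 and -0.43 on WT Flt3- arrays, a log2 difference of -0.49 (adjusted p = 0.00413). Acaca, the acetyl-CoA carboxylase that makes malonyl-CoA, fell by 0.31 (adjusted p = 0.0174). The citrate lyase gene Acly (-0.11) and the desaturase gene Scd2 (-0.03) were not called, and the probe of Me1, which encodes malic enzyme, a source of NADPH, was not well above background in either Flt3- group.

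Cell cycle genes moved in the same comparison. Of 10 S phase genes 9 fell and 0 rose, with a summed signal, relative to the 75th percentile, of 368 to 372 on Irf8KO Flt3- arrays, against 477 to 483 on WT Flt3- arrays. Of 10 G2 and M phase genes 8 fell and 0 rose, with sums of 122 to 123 on Irf8KO Flt3- arrays, against 149 to 152 on WT Flt3- arrays. Markers of eosinophils, basophils and mast cells fell in 5 of 6 genes (sums of 25.3 to 25.8 on Irf8KO and 63.0 to 64.1 on WT Flt3- arrays), and erythroid markers fell in 5 of 5 (0.83 to 0.85 on Irf8KO and 6.91 to 6.96 on WT Flt3- arrays). Mature neutrophil markers rose in 6 of 6, with sums of 3.74 to 3.89 on Irf8KO Flt3- arrays, against 1.53 to 1.66 on WT Flt3- arrays. Their part in the lower synthesis genes was not tested. Leaving out 1 array at a time left 11 to 17 members called. Hmgcs1, Idi1, Fdps, Sqle, Cyp51, Nsdhl, Hsd17b7, Stard4, Fasn and Elovl6 passed under every alternative tried other than the 1.5-fold minimum, which Hmgcs1, Fdps, Nsdhl and Fasn did not reach, and Lss lost its call without any 1 of the 4 Flt3- arrays (adjusted p = 0.067 to 0.073). Pmvk and Acaca lost theirs without either WT Flt3- array or Irf8KO Flt3- replicate 1, and Acaca also with quantile normalization. Msmo1 lost its call without WT Flt3- replicate 1 or Irf8KO Flt3- replicate 2. Srebf2 lost its call without WT Flt3- replicate 2 or Irf8KO Flt3- replicate 1. The Srebf2 call was also lost without the filter on dim probes, with the mean of its probes and with only the compared groups fitted.

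**Figure D2:**
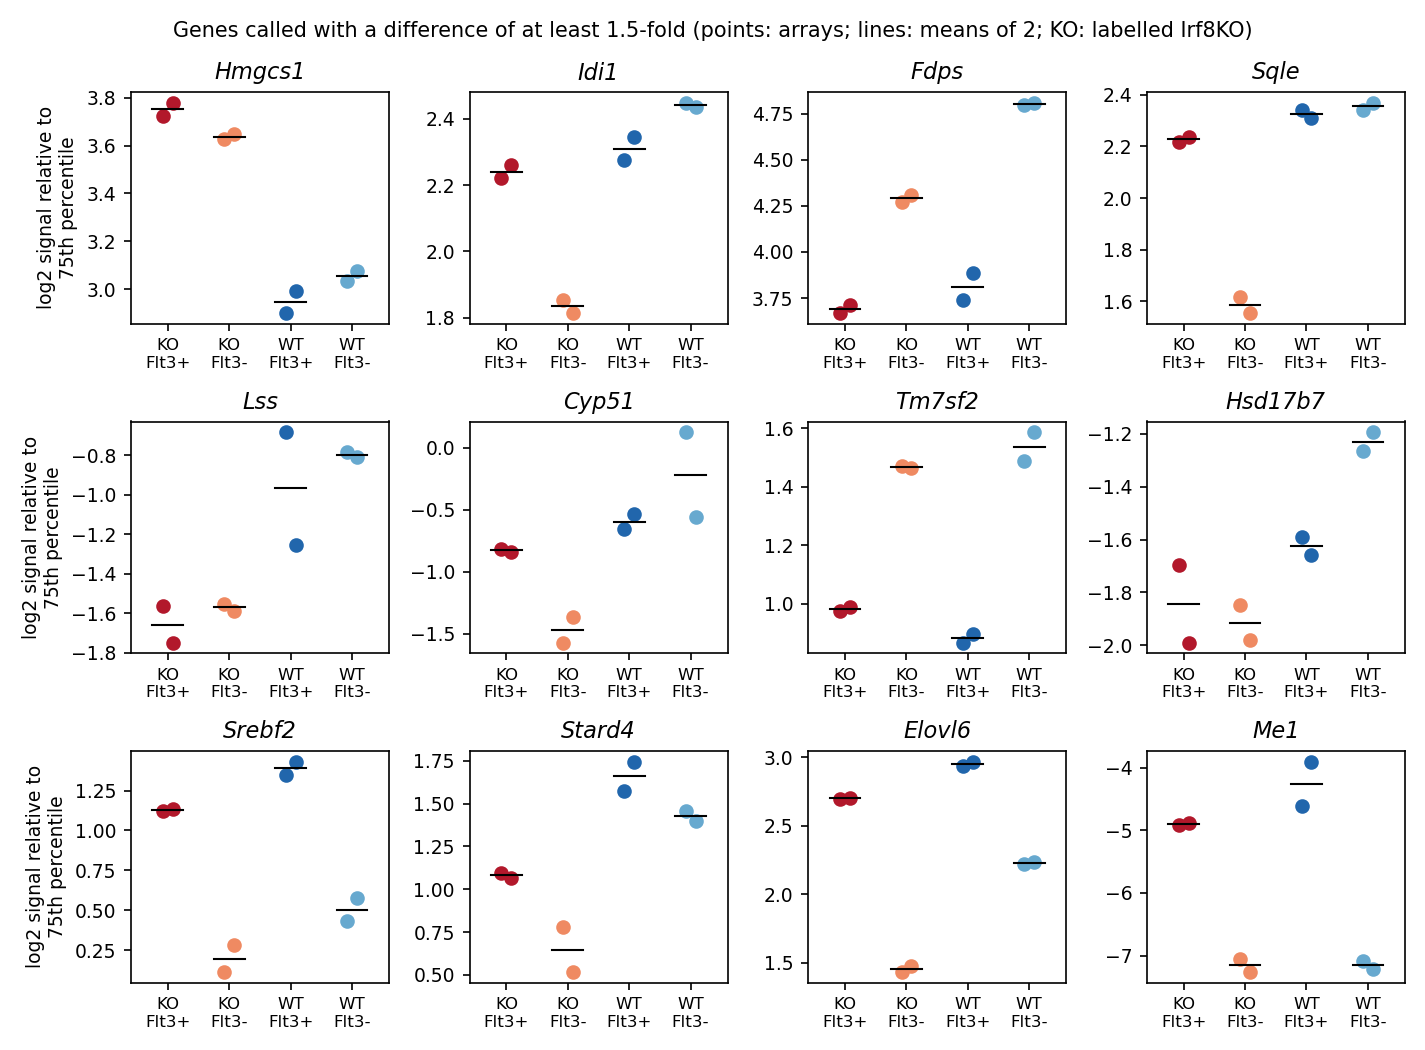
Level (log2 signal, with 0 at the 75th percentile of each array) of the 12 members called at 1.5-fold or more in at least 1 comparison, 1 panel each, with 1 point for each array and a bar for the mean of each group. Groups run from left to right as Irf8KO Flt3+, Irf8KO Flt3-, WT Flt3+ and WT Flt3-. Sqle lies at 1.61 and 1.55 on Irf8KO Flt3- arrays and at 2.22 to 2.37 on the other 6.

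In Flt3+ progenitors Hmgcs1 was again higher on Irf8KO arrays, and Lss, Elovl6 and the probe used for Stard4 were again lower. At the same threshold, 3 members rose (Hmgcs1, Mvd and Ebp) and 5 fell (Lss, Nsdhl, Insig1, Stard4 and Elovl6), which is 29.6% of the members, where 29% of all genes were called, 16.5% as higher and 12.5% as lower. The share is close to the background and is no result about the set. The median log2 difference was -0.07 over the members and 0.04 over all genes tested. With the 1.5-fold minimum, 1 member rose (Hmgcs1) and 1 fell (Lss), where 8.8% of all genes were called, 3.97% as higher and 4.83% as lower.

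Hmgcs1 had levels of 3.72 and 3.78 on Irf8KO Flt3+ arrays, against 2.90 and 2.99 on WT Flt3+ arrays. The log2 difference was 0.81 ± 0.05 (SE, adjusted p = 0.00024), and it was the highest of any member in this comparison. Lss had levels of -1.57 and -1.75 on Irf8KO Flt3+ arrays, against -0.68 and -1.25 on WT Flt3+ arrays, a log2 difference of -0.69 ± 0.18 (SE, adjusted p = 0.0372). The groups did not overlap but the WT arrays were far apart, and the log2 difference was -0.40 without WT Flt3+ replicate 1. Stard4 was lower by a smaller margin, with levels of 1.10 and 1.06 on Irf8KO Flt3+ arrays, against 1.58 and 1.74 on WT Flt3+ arrays, a log2 difference of -0.58 (adjusted p = 0.0102). The other kept probe of Stard4 gave a log2 difference of only -0.05. Elovl6 fell by 0.25 (adjusted p = 0.00734), with levels of 2.70 and 2.70 on Irf8KO Flt3+ arrays, against 2.93 and 2.97 on WT Flt3+ arrays.

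The remaining calls in Flt3+ cells were small. Nsdhl fell by 0.27 (adjusted p = 0.0200), Insig1, the sterol-sensing retention factor, fell by 0.16 (adjusted p = 0.0329), Mvd rose by 0.27 (adjusted p = 0.0486), and Ebp, a sterol isomerase, rose by 0.25 (adjusted p = 0.0365). With the experiment number as a block, Mvd (adjusted p = 0.073) and Ebp (adjusted p = 0.052) lost their calls and Srebf2 gained one (-0.26, adjusted p = 0.026). Of the genes that fell on Irf8KO Flt3- arrays, Lss, Stard4, Nsdhl and Elovl6 were called in Flt3+ cells as well, and the others were not. Idi1 had levels of 2.22 and 2.26 on Irf8KO Flt3+ arrays, against 2.28 and 2.34 on WT Flt3+ arrays (-0.07). Sqle had levels of 2.22 and 2.24 on Irf8KO Flt3+ arrays, against 2.34 and 2.31 on WT Flt3+ arrays (-0.10). Cyp51 had levels of -0.81 and -0.84 on Irf8KO Flt3+ arrays, against -0.66 and -0.53 on WT Flt3+ arrays (-0.23). In Idi1, Sqle and Cyp51 both Irf8KO arrays lay just below both WT arrays, and none of these differences was called. Hsd17b7 had levels of -1.70 and -1.99 on Irf8KO Flt3+ arrays, against -1.59 and -1.66 on WT Flt3+ arrays (-0.22), also not called. The log2 differences of Fdps (-0.12), Fasn (-0.02) and Acaca (0.05) were not called either.

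Proliferation genes and other markers moved in Flt3+ cells as well. Of the G2 and M phase genes 9 of 10 rose, with sums of 217 to 223 on Irf8KO Flt3+ arrays, against 148 to 155 on WT Flt3+ arrays, while S phase genes gave 3 rises and 0 falls (404 to 410 on Irf8KO and 381 to 396 on WT Flt3+ arrays). Erythroid markers fell in 5 of 5 (1.66 to 1.67 on Irf8KO and 18.6 to 18.8 on WT Flt3+ arrays), and mature neutrophil markers rose in 6 of 6 (4.09 to 4.11 on Irf8KO and 1.36 to 1.37 on WT Flt3+ arrays). Stem cell markers fell in 4 of 4, megakaryocyte markers in 4 of 5, and eosinophil, basophil and mast cell markers in 4 of 6. Among the last, 1 rose. Lymphoid markers rose in 4 of 6, and granulocyte progenitor markers rose in 6 of 8 and fell in 1. The part of these markers and of the cell cycle genes in the result was not tested. The count of 8 members was not stable, at 2 to 6 when 1 array was left out. It was 3 without Irf8KO Flt3+ replicate 1, 2 without Irf8KO Flt3+ replicate 2 and 5 without WT Flt3+ replicate 1 or either WT Flt3- array. Of the 8 calls, those of Hmgcs1 and Elovl6 held under every alternative other than the 1.5-fold minimum, which Elovl6 did not reach, and Mvd, Lss, Nsdhl, Ebp, Insig1 and Stard4 each lost theirs when either Irf8KO Flt3+ array was left out (adjusted p = 0.051 to 0.175).

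**Figure D3:**
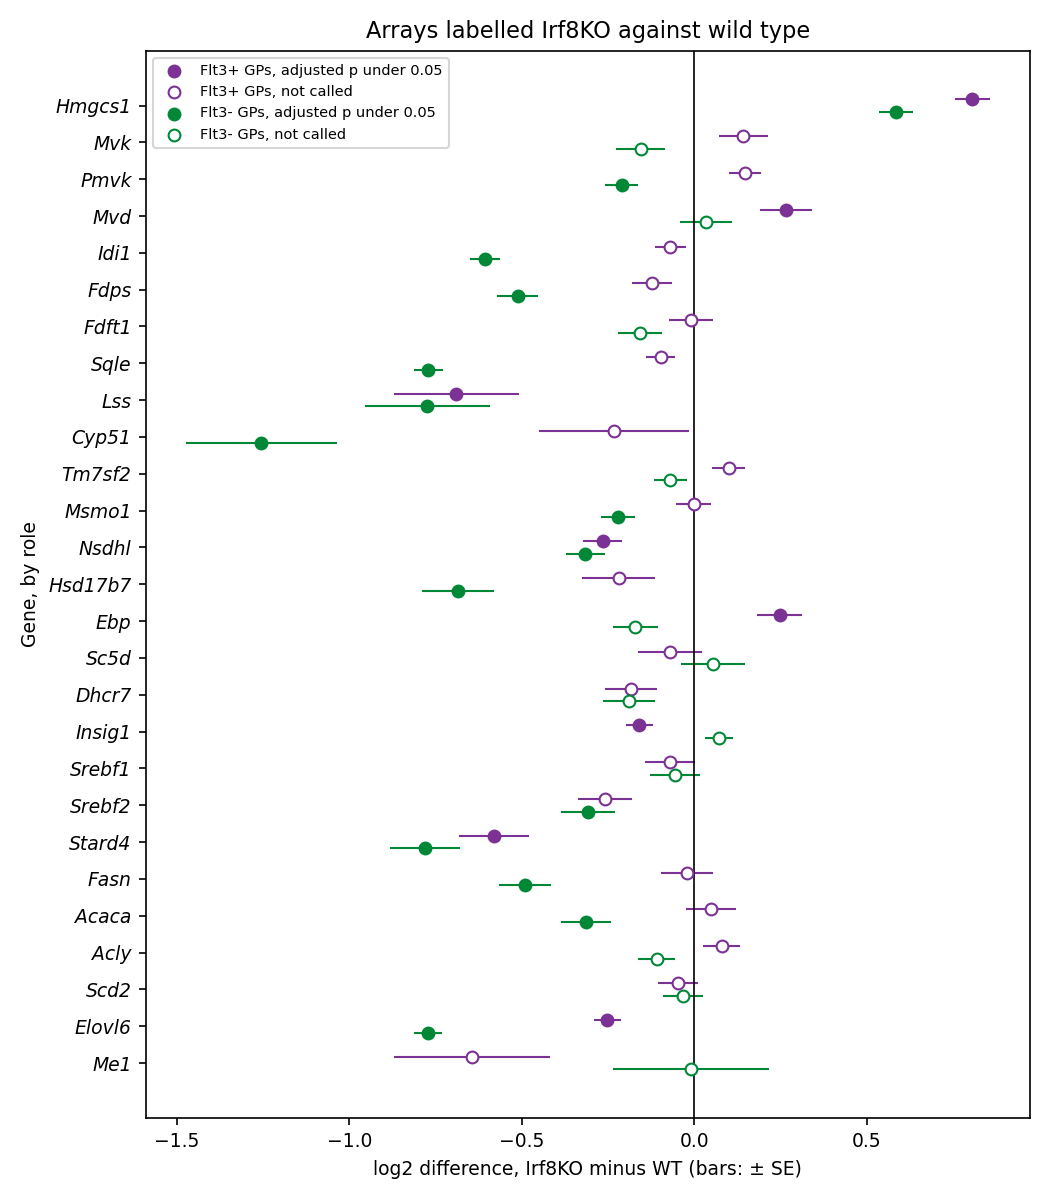
Log2 difference between Irf8KO and WT arrays for each tested member, with its standard error, in Flt3+ and in Flt3- progenitors. Members run down the page by role, filled points passed an adjusted p below 0.05, and a vertical line marks 0. Hmgcs1 lies right of 0 in both populations, at 0.81 and 0.58, and most others lie left of 0 in Flt3- cells.

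Whether the genotype difference itself differed between the populations was tested as an interaction, the log2 difference in Flt3+ cells minus that in Flt3- cells. Of the 27 members, 8 were called higher and 1 lower, or 33.3%, where 30.9% of all genes were called, 21.4% as higher and 9.45% as lower. That share is near the background, so the count is no result about the set. With the 1.5-fold minimum, 1 member was higher (Sqle) and 0 lower, where 9.44% of all genes were called, 5.21% as higher and 4.23% as lower. The values were 0.67 ± 0.06 for Sqle (SE, adjusted p = 0.00196), 0.54 ± 0.06 for Idi1 (adjusted p = 0.00369), and 0.52 ± 0.06 for Elovl6 (adjusted p = 0.00322). In these genes the Irf8KO arrays were lower in Flt3- cells by more than in Flt3+ cells. The calls of Sqle, Idi1 and Elovl6 held under every alternative other than the 1.5-fold minimum, which Idi1 and Elovl6 did not reach. Smaller positive values were called for Fasn (0.47), Ebp (0.42), Fdps (0.39), Pmvk (0.36) and Acaca (0.36), and a negative one for Insig1 (-0.23). Each of these smaller values lost its call under at least 1 such alternative. Cyp51 had the highest value, 1.02 ± 0.31 (SE), and did not pass (adjusted p = 0.0534). For Hmgcs1 the value was 0.22 (adjusted p = 0.0621), which was called with the experiment number as a block (adjusted p = 0.042). S phase and G2 and M phase genes were each called higher in 9 of 10 in this test, and their part in it was not tested. The count was 4 without WT Flt3- replicate 1, 5 without WT Flt3- replicate 2, either Irf8KO Flt3+ array or Irf8KO Flt3- replicate 1, and 4 to 10 over all arrays left out in turn.

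Between the WT populations, most enzymes of cholesterol synthesis were lower in Flt3+ than in Flt3- progenitors, while Srebf2, Insig1 and Elovl6 were higher. Of the 27 members, 4 were called higher, with Me1 among them, and 12 lower, where 61.9% of all genes were called, 22.6% as higher and 39.2% as lower. The members' shares were 14.8% and 44.4%, and their median log2 difference was -0.16, against -0.12 over all genes, so the set as a whole moved little against the rest. With the 1.5-fold minimum, 3 were higher (Srebf2, Elovl6 and Me1) and 2 fell (Fdps and Tm7sf2), where 24.5% of all genes were called, 12.3% as higher and 12.2% as lower. Within the set, 10 of the 17 cholesterol enzymes fell and 0 rose, with a median of -0.32. Direction in this comparison depends on the scaling. With quantile normalization, which moved the median of all genes to -0.01, 8 members rose and 7 fell. The 7 were Mvk, Mvd, Fdps, Tm7sf2, Nsdhl, Hsd17b7 and Sc5d. Granulocyte progenitor markers were lower in 7 of 8 (sums of 840 to 943 on WT Flt3+ and 2346 to 2484 on WT Flt3- arrays). S phase genes were lower in 8 of 10 (381 to 396 on WT Flt3+ and 477 to 483 on WT Flt3- arrays). Of 10 G2 and M phase genes, 3 were higher and 2 lower. Their sums were 148 to 155 on WT Flt3+ and 149 to 152 on WT Flt3- arrays. Markers of eosinophils, basophils and mast cells were lower in 5 of 6, and stem cell markers were higher in 4 of 4. Lymphoid markers were higher in 4 of 6 (117 to 125 on WT Flt3+ and 3.90 to 4.03 on WT Flt3- arrays), and the part of these markers in the result was not tested.

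Fdps fell most among the WT enzymes, with levels of 3.74 and 3.89 on WT Flt3+ arrays, against 4.80 and 4.81 on WT Flt3- arrays, a log2 difference of -0.99 ± 0.06 (SE, adjusted p = 4.92e-05). It fell in Irf8KO cells as well, to 3.67 and 3.71 on Irf8KO Flt3+ arrays, against 4.27 and 4.31 on Irf8KO Flt3- arrays, by 0.60 (adjusted p = 0.000479). All 4 Flt3+ arrays were below all 4 Flt3- arrays. Tm7sf2, a sterol reductase, had levels of 0.87 and 0.90 on WT Flt3+ arrays, against 1.49 and 1.59 on WT Flt3- arrays (-0.66, adjusted p = 0.000107). On Irf8KO arrays it had 0.97 and 0.99 in Flt3+ cells, against 1.47 and 1.46 in Flt3- cells (-0.49, adjusted p = 0.000477), again with no overlap. Mvd fell by 0.52 and 0.29 in WT and Irf8KO cells, and Sc5d, a sterol desaturase, by 0.42 and 0.54. In Irf8KO cells Mvd lost its call without either Irf8KO Flt3+ array or Irf8KO Flt3- replicate 2, and without the filter on dim probes. Falls of 0.43 for Mvk, 0.39 for Hsd17b7, 0.36 for Ebp, 0.38 for Acaca and 0.25 for Acly were called in WT cells. The same genes gave -0.13, 0.07, 0.06, -0.02 and -0.06 in Irf8KO cells, none of which was called. In the interaction test Mvk, Hsd17b7 and Acly did not pass (adjusted p = 0.0737, 0.0633 and 0.115). Ebp and Acaca passed it, but lost those calls under several alternatives. With quantile normalization the WT falls of Ebp, Acaca and Acly were not called. A further kept probe of Acaca gave 0.03 in WT cells. Nsdhl fell in both, by 0.32 in WT and 0.27 in Irf8KO cells. In WT cells the other kept probe of Nsdhl gave 0.07, and the mean of its probes was not called (adjusted p = 0.054). In Irf8KO cells Nsdhl lost its call without Irf8KO Flt3+ replicate 1 or Irf8KO Flt3- replicate 2. Idi1 and Pmvk fell by 0.13 and 0.16 in WT cells. Idi1 lost its call with the block (adjusted p = 0.057). Pmvk and Idi1 also lost theirs without WT Flt3- replicate 1 (adjusted p = 0.12 and 0.169), as did Hsd17b7 (adjusted p = 0.052) and Acly (adjusted p = 0.056).

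Srebf2 and Elovl6 were higher in Flt3+ cells of both genotypes. Srebf2 had levels of 1.35 and 1.43 on WT Flt3+ arrays, against 0.43 and 0.57 on WT Flt3- arrays, a log2 difference of 0.89 ± 0.08 (SE, adjusted p = 0.000228). On Irf8KO arrays it had 1.12 and 1.14 in Flt3+ cells, against 0.11 and 0.28 in Flt3- cells (0.93, adjusted p = 0.000257). Its second probe gave 0.31 in WT and -0.18 in Irf8KO cells, so that the probes disagreed in sign in Irf8KO cells. Elovl6 had 2.93 and 2.97 on WT Flt3+ arrays, against 2.22 and 2.23 on WT Flt3- arrays (0.73, adjusted p = 3.57e-05). On Irf8KO arrays it had 2.70 and 2.70 in Flt3+ cells, against 1.43 and 1.48 in Flt3- cells (1.25, adjusted p = 6.77e-06). All Flt3+ arrays were above all Flt3- arrays, and the gap was wider in Irf8KO cells, as the interaction shows. Insig1 rose by 0.38 in WT cells (adjusted p = 0.000467).

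Me1 was well above background on both Flt3+ arrays of each genotype and on 0 Flt3- arrays. Its measured levels were -4.61 and -3.90 on WT Flt3+ arrays, against -7.08 and -7.21 on WT Flt3- arrays. On Irf8KO arrays they were -4.92 and -4.89 in Flt3+ cells, against -7.05 and -7.27 in Flt3- cells. Set against the lowest signal called well above background on each array, Me1 was at least 2.02-fold higher in WT Flt3+ cells and at least 1.01-fold higher in Irf8KO Flt3+ cells. It was tested only because it passed the filter in the Flt3+ groups, so its place among the called genes of the population comparisons is no support for a difference. With normexp background correction the log2 difference of Me1 was 0.22 in WT and 0.05 in Irf8KO cells, the second not called, and without the filter on dim probes neither was called.

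In Irf8KO cells 11 members, with Me1 among them, were called higher and 5 lower in Flt3+ than in Flt3- cells, where 45.8% of all genes were called, 22.1% as higher and 23.6% as lower. The members' shares were 40.7% and 18.5%, with a median log2 difference of 0.11, against -0.03 over all genes. With the 1.5-fold minimum, Sqle, Srebf2 and Elovl6 rose and Fdps fell. The fitted value of Me1 passed it too, but its bound of 1.01-fold does not. Over all genes 18.7% were called with that minimum, 10.2% as higher and 8.58% as lower. Sqle had levels of 2.22 and 2.24 on Irf8KO Flt3+ arrays, against 1.61 and 1.55 on Irf8KO Flt3- arrays, a log2 difference of 0.64 ± 0.04 (SE, adjusted p = 9.5e-05). In WT cells its difference was -0.03 and was not called. Stard4 rose by 0.43 (adjusted p = 0.0156), but its other kept probe gave -0.04 and the mean of both was not called (adjusted p = 0.085). Idi1 rose by 0.41 (adjusted p = 0.000774), Fasn by 0.33 (adjusted p = 0.0154), Msmo1 by 0.29 (adjusted p = 0.00484), Fdft1, the squalene synthase, by 0.24 (adjusted p = 0.0248), Pmvk by 0.20 and Insig1 by 0.15. Cyp51 had levels of -0.81 and -0.84 on Irf8KO Flt3+ arrays, against -1.57 and -1.37 on Irf8KO Flt3- arrays, and its difference of 0.64 did not pass (adjusted p = 0.0572). This comparison shares its Irf8KO Flt3- arrays with the genotype comparison in Flt3- cells, so that the lower values there enter both. G2 and M phase genes rose in 10 of 10 (217 to 223 on Irf8KO Flt3+ and 122 to 123 on Irf8KO Flt3- arrays), granulocyte progenitor markers fell in 7 of 8 (1372 to 1381 on Irf8KO Flt3+ and 2705 to 2959 on Irf8KO Flt3- arrays). Lymphoid markers rose in 4 of 6 (229 to 249 on Irf8KO Flt3+ and 3.96 to 4.26 on Irf8KO Flt3- arrays), stem cell markers rose in 4 of 4, and markers of eosinophils, basophils and mast cells fell in 5 of 6. The part of these genes in the result was not tested. The count was 10 without Irf8KO Flt3+ replicate 1, and 10 to 18 over all arrays left out in turn. Without Irf8KO Flt3+ replicate 2, Pmvk, Mvd, Fdft1, Stard4, Fasn and Insig1 lost their calls.

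**Figure D4:**
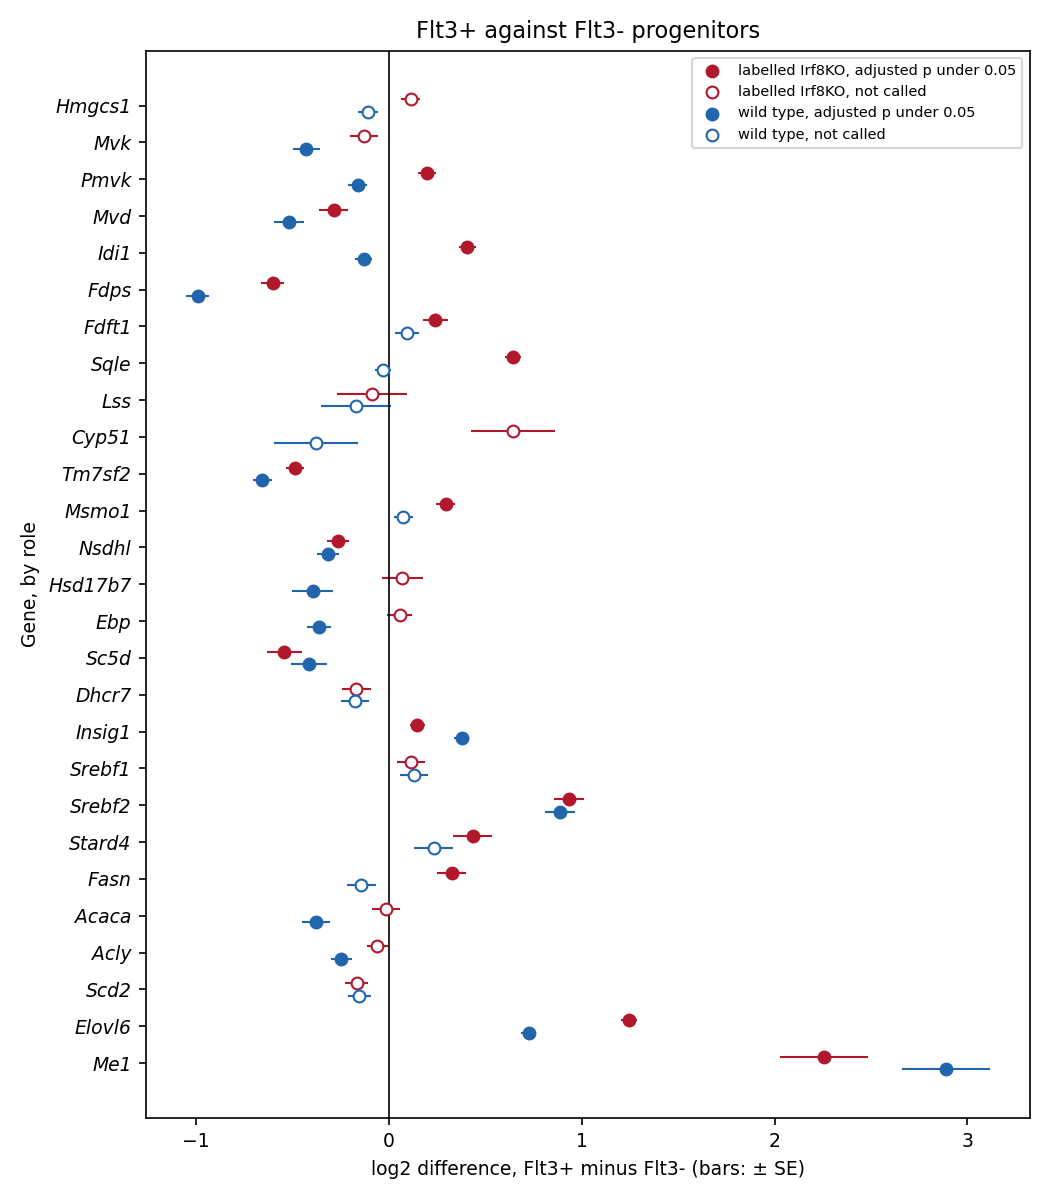
Log2 difference between Flt3+ and Flt3- arrays for each tested member, with its standard error, in Irf8KO and in WT cells. Members run down the page by role, filled points passed an adjusted p below 0.05, and a vertical line marks 0. Sqle lies at 0.64 in Irf8KO and at -0.03 in WT cells, while Fdps lies left of 0 in both; Me1 is drawn at fitted values although its Flt3- arrays were too dim to give more than a bound.

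The members that stayed uncalled in every comparison were Srebf1, Dhcr7 and Scd2. Srebf1, which encodes SREBP-1, had log2 differences between -0.07 and 0.13. Dhcr7, the reductase of the last step to cholesterol, lay between -0.19 and 0.01, and Scd2, a desaturase, between -0.17 and -0.01. With the experiment number as a block, Scd2 was called lower in Flt3+ cells of both genotypes (adjusted p = 0.037 in each). Of the 9 tested members with several kept probes, 4 had a further probe of opposite sign for at least 1 called difference. These were Nsdhl, Srebf2, Stard4 and Acaca. Counted over called differences and further probes, 19 of 26 signs matched.

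Genes around these pathways were counted in lists. Among 10 genes of elongation, desaturation and activation of fatty acids, 8 fell and 1 rose on Irf8KO Flt3- arrays relative to WT Flt3- arrays, against the background of 27.2% lower and 16.5% higher. Fads2, the delta-6 desaturase, fell by 1.42 (adjusted p = 0.00039), Elovl7, an elongase, by 1.35 (adjusted p = 5.49e-05), and Fads1, the delta-5 desaturase, by 0.80 (adjusted p = 0.000683). In Flt3+ cells 4 of these 10 fell and 1 rose, with Elovl7 again lower by 1.46 on Irf8KO arrays. For Fads2 the interaction was 0.94 (adjusted p = 0.00698), so that, like Sqle and Elovl6, it was lower by more in Flt3- cells. Among 7 genes of SREBP processing and precursor supply, which include the SREBP escort Scap, 2 fell (28.6%) and 0 rose in each genotype comparison, which is near the background of 27.2% in Flt3- cells and above that of 12.5% in Flt3+ cells. Acss2, an acetyl-CoA synthetase, fell by 0.74 in Flt3+ cells (adjusted p = 0.00618).

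Of 7 genes of the LXR (sterol-sensing nuclear receptor) and efflux list, 5 rose and 1 fell on Irf8KO Flt3- arrays, where 16.5% of all genes rose and 27.2% fell. On Irf8KO Flt3+ arrays 0 rose and 3 fell, where 16.5% rose and 12.5% fell. The interaction was called negative for 4 of the 7 and positive for 0, against 9.45% and 21.4% of all genes. It was -0.90 for Abca1, the cholesterol exporter (adjusted p = 0.00124), -0.66 for Mylip, which marks lipoprotein receptors for degradation (adjusted p = 0.0073), and -0.59 for Abcg1, another sterol exporter (adjusted p = 0.00223). In WT cells Abca1 was higher in Flt3+ than in Flt3- progenitors by 1.80, and Nr1h3, which encodes LXR alpha, was lower by 1.30.

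Of 12 tested genes of lipid uptake, trafficking and storage, 6 rose in each genotype comparison, while 2 fell in Flt3+ cells and 3 in Flt3- cells, against the 16.5% of all genes that rose in each. Lrp1, a lipoprotein receptor, rose by 2.36 in Flt3+ and 1.93 in Flt3- cells (adjusted p = 2.26e-05 and 8.55e-05). Soat2, which esterifies cholesterol, fell by 1.41 and 1.23, and Vldlr, another lipoprotein receptor, fell by 1.94 in Flt3+ and 0.96 in Flt3- cells. Between populations, Dgat2, the last enzyme of triglyceride synthesis, was lower in Flt3+ cells, with log2 differences of -3.09 in WT and -2.79 in Irf8KO cells. Among 14 genes of fatty acid oxidation, 2 rose (14.3%) and 3 fell (21.4%) on Irf8KO Flt3- arrays, near or under the background. In WT Flt3+ relative to WT Flt3- cells 1 rose and 9 fell (64.3%, against 39.2% of all genes), and Acaa2, a thiolase, fell by 0.80. The isoprenoid branches had 1 fall among 7 on Irf8KO Flt3- arrays (14.3%), under the background of 27.2%. It was Pdss1, which builds the side chain of ubiquinone, at -0.61 (adjusted p = 0.000744).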

How the data were processed

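The deposited files hold the processed intensity of each spot on a linear scale. Per the file headers they were made with Agilent Feature Extraction 10.7.3.1, with background subtraction and detrending, and their levels differ between arrays. The deposited series table holds linear intensities scaled by 1 factor per array, judged from its values, with array medians of 26.9 to 29.9, and served as an alternative. Each array had 59305 non-control spots, of which 54.9 to 60.1% were well above background and 0 saturated. No counts underlie these values, and the number of arrays limits the precision.

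Spots flagged as outliers and control spots were dropped, the rest averaged by probe, and log2 values set relative to the 75th percentile of each array. Probes had to exceed background clearly on both arrays in 1 or more groups. They were named through RefSeq accessions (GRCm38.p6), with 26762 of 55681 probes named, and the kept probe with the highest mean stood for its gene. A model with 1 mean per group was fitted to all 8 arrays and 14109 genes with limma 3.58.1 in R 4.3.3, with Benjamini-Hochberg adjustment. The code was also run on simulated data with few genes changed in 1 group, which does not check the fit to these data. The labels pair arrays by experiment number. The deviations of same-numbered arrays correlated at -0.03 to 0.12.

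Every member is accounted for, and members called at 1.5-fold or more are given array by array. Up to 3 called genes of at least 1.5-fold per comparison could be named from each further list. Members and lists were chosen with earlier results of these data known. Alternatives were quantile normalization, normexp correction with an offset of 50, a percentile over spots (chosen after seeing the data), the series table, other probe filters, the mean of the probes, a fit of only the groups compared, trend and robust moderation, the block, each array left out, and a 1.5-fold minimum. Promoters came from RefSeq (GRCm38.p6). They were given for 22 of 28 members.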

Additional observations from a re-analysis of the deposited data

Results flagged for a closer look

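The genotype difference was called as differing between Flt3+ and Flt3- progenitors for 9 of the 27 tested members, by the interaction test across all genes in limma. As log2 differences in Flt3+ minus those in Flt3- cells, the values were 0.67 for Sqle, 0.54 for Idi1, 0.52 for Elovl6, 0.47 for Fasn, 0.42 for Ebp, 0.39 for Fdps, 0.36 for Pmvk, 0.36 for Acaca and -0.23 for Insig1. At the same threshold 30.9% of all genes were called, so the number of members called is near the background. Sqle, Idi1 and Elovl6 kept their calls under every alternative other than the 1.5-fold minimum. Acaca lost its call under 12 of these alternatives, Insig1 under 10, Ebp under 8, Fdps under 7, Fasn under 6 and Pmvk under 1. For Acaca a further kept probe gave -0.07, and cell cycle genes were called in the same test, with their part in it not tested.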

How the results depend on the processing

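Of 64 called differences of members over the 5 comparisons, 31 were called under every alternative other than the 1.5-fold minimum. Over 1141 pairs of a called difference and such an alternative, 970 kept the direction and the call, 166 lost the call and 5 changed sign. Members called in the WT population, Irf8KO Flt3+, Irf8KO Flt3-, Irf8KO population and interaction comparisons numbered 16, 8, 15, 16 and 9, and with a 1.5-fold minimum 5, 2, 7, 5 and 1. Without the filter on dim probes the Irf8KO Flt3+ comparison gave 3 and the interaction 4, with only the compared groups fitted the Irf8KO Flt3+ comparison gave 5, and with trend and robust moderation the interaction gave 14. Leaving out 1 array at a time gave 12 to 16, 2 to 6, 11 to 17, 10 to 18 and 4 to 10 members.

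Quantile normalization turned the sign in the WT population comparison for Pmvk (0.0386), Idi1 (0.0239), Sqle (0.13), Acly (0.0639) and Scd2 (0.17), where Sqle and Scd2 were then called. It gave 8 higher and 7 lower members, against 4 and 12, and 4198 higher and 4123 lower genes, against 3194 and 5535. The mean of the probes turned Srebf2 in Irf8KO Flt3- cells (0.0805), and normexp correction turned Insig1 in the Irf8KO population comparison (-0.00625). In Irf8KO Flt3+ cells, quantile normalization gave 2 higher and 7 lower members and normexp correction 2 and 6, against 3 and 5, and percentiles over spots, chosen after seeing the data, 2 and 6. In the interaction, quantile normalization gave 1976 higher and 1869 lower genes, against 3021 and 1333, and normexp correction gave 8 higher and 0 lower members. The cause was not tested.

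The experiment number as a block gave 1 higher and 6 lower members in Irf8KO Flt3+ cells, and apart from the 7 changes named with their values (Idi1, Mvd, Ebp, Srebf2, Hmgcs1 and Scd2 in both genotypes) changed no other call of a member. Over all genes, a 1.5-fold minimum left 3460, 1242, 1408, 2645 and 1332 calls. In Irf8KO Flt3+ cells 4088 genes were called, against 2679 with no filter and 2665 with only the compared groups, and in the interaction 4354, against 2725 with no filter. Genes called fell to 2183 and 1996 without Irf8KO Flt3+ replicate 1 or 2, and to 4054 of 6158 in Irf8KO Flt3- cells without WT Flt3- replicate 2. With 2 arrays a group, signal near background limits Me1 and Scd1.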
